A study of Mus musculus with 27 samples.

Results

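The livers of mice given TCDD at 3 µg/kg were compared with those of mice given the vehicle alone. TCDD (2,3,7,8-tetrachlorodibenzo-p-dioxin) is the most potent of the dioxins, which bind and activate the aryl hydrocarbon receptor (AhR). The members were chosen by their labels: the 3 libraries with a dose of 3 µg/kg and the 3 libraries with the treatment Vehicle, which are 6 of the 27 libraries of the series. All 27 came from ovariectomized female C57BL/6 mice, labelled as 120 days old, that were gavaged every 4 days for 92 days, and the controls received sesame oil. One protocol label also calls the dosing daily. Each of the 9 groups, vehicle and 8 doses from 0.01 to 30 µg/kg, has 3 libraries made with an Illumina TruSeq RNA kit from total RNA extracted with TRIzol. Ovariectomy was common to all groups, so the controls also lacked ovaries. The 3 vehicle libraries are called V1 to V3 below and the 3 libraries at 3 µg/kg T1 to T3.

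In the absence of a ligand AhR is held in the cytosol by heat shock protein 90 and co-chaperones. With a bound ligand it moves to the nucleus, pairs with ARNT and binds DNA at xenobiotic response elements, whose core is GCGTG, beside the genes of cytochrome P450 family 1 and other detoxification genes. In the liver, sustained activation by dioxin is known for enzyme induction, fat accumulation, loss of hepatocyte functions and, at high doses, inflammation and fibrosis.

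The values are whole read counts per gene, with totals of 26212424, 19906704 and 29460863 in V1 to V3 and 12152407, 11050391 and 25095297 in T1 to T3. Levels are given as CPM, reads scaled to library size after TMM scaling, in the order V1 to V3 and T1 to T3, and means carry the SD of 3 libraries. A gene was called, or is said to have risen or fallen, at an adjusted p below 0.05 in edgeR's quasi-likelihood test. Nothing in the labels says that the 3 samples of a group are more than separate samples. A p measures only the spread between samples of the same group, estimated over all 9 groups of the series. Among 12 hepatocyte markers, such as Alb, which encodes albumin, 1 was called, Apoa1, which fell, beside 4.89% of all genes that fell. The summed level of the 12 was 135771 to 254103 CPM in vehicle and 125143 to 160936 CPM at 3 µg/kg. The log2 fold change was below 0 for 10 of them, with a median of -0.34. All 3 treated livers lay below all controls for 5 of them and above for 0, against 17.5% and 16.1% of all genes. Reads were counted per gene in whole liver, so fewer cells of a type and less RNA per cell cannot be told apart in any result below. Actb, Gapdh and Hprt, often used as references, were not called, with log2 fold changes of 0.15, 0.58 and 0.27. Gapdh stood at only 2.16, 1.99 and 3.89 CPM in the vehicle libraries and 6.93, 1.85 and 3.39 CPM at 3 µg/kg. The deposited names carry an index sequence for each library, and no index is shared between groups except by vehicle and 30 µg/kg, so no batch across vehicle and 3 µg/kg can be read from them.

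At 3 µg/kg 1520 of 15121 genes tested were called against vehicle, which is 10.1% of them. The 781 genes that rose (5.17%) had a median fold of 2.40, and 497 rose at least 2-fold, 202 at least 4-fold and 81 at least 10-fold. The 739 genes that fell (4.89%) had a median fold of 2.01, with 378, 117 and 30 past the same limits. The rises had the larger median fold, and rises made up 51.4% of the calls, 58.6% with RLE factors and 57.4% by DESeq2. The median log2 fold change over all genes was -0.03. These shares, 5.17% higher and 4.89% lower, are the background for every list count against vehicle below. All 3 libraries of one group lay above all 3 of the other for 769 of the rises and 726 of the falls. Over all genes tested such a separation was seen upward in 16.1% and downward in 17.5%. The count depended on single libraries: it was 917 without V3, 1000 without T2 and 949 without T3.

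The AhR target battery, a list of 11 genes known to be induced through the receptor, held 8 genes that rose and none that fell, against 5.17% of all genes that rose. Its median log2 fold change was 2.09. Cyp1a1 (ENSMUSG00000032315, GRCm38 chromosome 9 from 57687928 to 57703824 on the plus strand), the P450 that oxidises polycyclic aromatic compounds, stood at 3.69, 3.19 and 2.49 CPM in the vehicle libraries and 4803, 5809 and 5170.5 CPM at 3 µg/kg. The groups were far apart, with no treated liver near a control (log2 fold change 10.71, SE 0.33, adjusted p = 4.15e-18). Its neighbour Cyp1a2 (ENSMUSG00000032310, chromosome 9 from 57676937 to 57683703 on the minus strand), the constitutive P450 of the family in liver, stood at 777, 664 and 743 CPM in the vehicle libraries and 15371, 16227 and 14984 CPM at 3 µg/kg (log2 fold change 4.41, SE 0.25, adjusted p = 1.71e-12). From a much higher base it rose 21.3-fold. Cyp1b1 (ENSMUSG00000024087, chromosome 17 from 79701537 to 79715061 on the minus strand), which acts on oestrogens and is mostly made outside the liver, was close to nothing in the controls, at 0.821, 0.784 and 0.682 CPM, and reached 192, 240.3 and 233 CPM at 3 µg/kg (log2 fold change 8.17, SE 0.35, adjusted p = 4.89e-15).

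The repressors of the pathway rose too. Ahrr (ENSMUSG00000021575, chromosome 13 from 74211118 to 74292331 on the minus strand), the AhR repressor, which competes for ARNT, stood at 0.224, 0.105 and 0.12 CPM in the vehicle libraries and 35.6, 44.1 and 45.4 CPM at 3 µg/kg (log2 fold change 8.02, SE 0.33, adjusted p = 2.01e-15). Tiparp, an ADP-ribosyltransferase that marks AhR for breakdown, stood at 4.29, 5.8 and 5.86 CPM in the vehicle libraries and 21.7, 21.9 and 20.1 CPM at 3 µg/kg and rose 3.99-fold (adjusted p = 2.01e-05). Both were separated from the controls in every library. Among the conjugation and redox genes of the battery, Nqo1, a quinone reductase, rose 4.26-fold from 12, 13.1 and 12.6 to 48.4, 53.3 and 58.7 CPM (adjusted p = 2.28e-08). Ugt1a6a, a glucuronosyltransferase, rose 2.18-fold (adjusted p = 0.000751), from 31.9 ± 4.05 to 69.8 ± 11.3 CPM. Nfe2l2, which encodes the antioxidant regulator NRF2, rose 1.68-fold (adjusted p = 0.00195) and was nearly the same in the 3 treated livers, at 116, 116 and 117 CPM. The other 3 members were not called. Ugt1a6b stood at 22.2, 24.5 and 26.4 CPM in the vehicle libraries and 26.4, 33.5 and 35.1 CPM at 3 µg/kg (adjusted p = 0.283), Cyp2s1 at 1.45, 0.314 and 0.201 CPM in the vehicle libraries and 0.245, 0.705 and 0.732 CPM at 3 µg/kg (adjusted p = 0.901), and Aldh3a1, an aldehyde dehydrogenase of the classical battery, had at most 0.193 CPM in any of the 6 libraries. Annotated exons of Ugt1a6a and Ugt1a6b are shared to 50.3% and 60.6% with other genes of their strand, because the Ugt1a genes use common last exons, so their separate counts are uncertain. Every call of the battery was kept in all the alternatives tried, with 8 rises each time.

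Of the receptor and its partners 1 of 7 tested passed. Ahr stood at 43.5, 60.1 and 41.1 CPM in the vehicle libraries and 33.3, 31.7 and 36.7 CPM at 3 µg/kg, lower in each treated liver than in each control, but was not called (log2 fold change -0.51, SE 0.20, adjusted p = 0.11). Arnt, its dimer partner, stood at 46.4 ± 4.74 and 43.2 ± 2.86 CPM (adjusted p = 0.709). The chaperone genes Hsp90aa1, Hsp90ab1 and Ptges3 were not called either, with adjusted p from 0.164 to 0.95. Src, a tyrosine kinase found in the cytosolic AhR complex, was the one called: it stood at 3.25, 3.03 and 3.77 CPM in the vehicle libraries and 10.2, 14.1 and 12.8 CPM at 3 µg/kg and rose 3.68-fold (adjusted p = 2.54e-06).

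**Figure D1:**
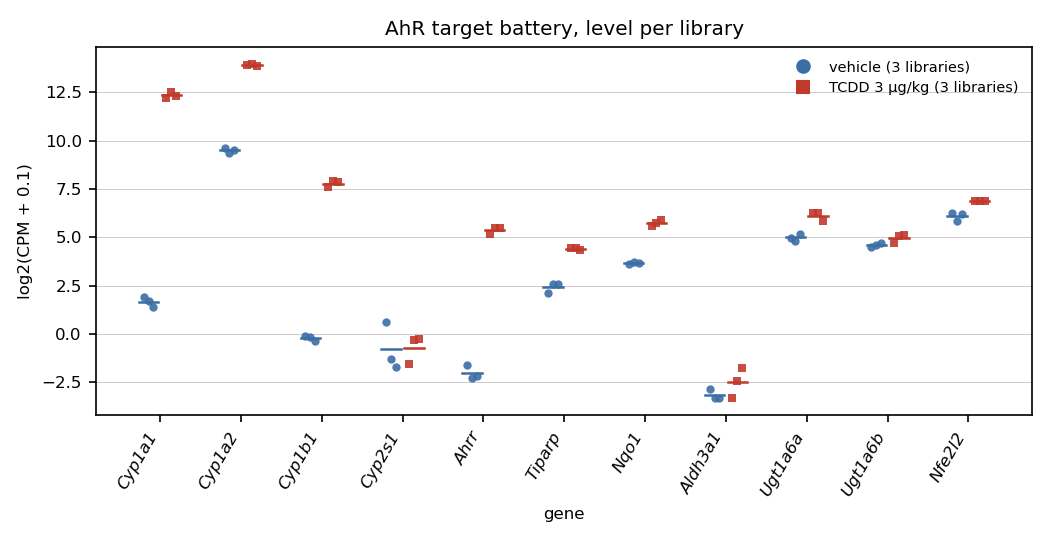
Level of each AhR battery gene in the 3 vehicle and 3 TCDD 3 µg/kg livers, as log2(CPM + 0.1) on the vertical axis, 1 point per library and short bars at the mean of the log2 values. Cyp1a1, Cyp1b1 and Ahrr show the widest gaps, with log2 fold changes of 10.71, 8.17 and 8.02, while Cyp2s1 and Ugt1a6b overlap or nearly so between the groups.

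The sequences just upstream of a RefSeq start of 4 of these genes hold the core of the xenobiotic response element. For Cyp1a1 that start lies inside the GENCODE interval of the gene given above. RefSeq start sites were matched for 9 of the 11 battery genes, and the letters GCGTG were searched on both strands in the 250 bases before each start. Cyp1a1, Cyp1b1, Ahrr and Tiparp held a match, and Cyp1a2, Cyp2s1, Nqo1, Ugt1a6a and Nfe2l2 held none. The motif is common: 28.2% of 32841 promoters in the table hold it, as do 41.9% of the promoters of genes that rose, 40.6% of those that fell and 42.4% of those not called. In the battery it was 44.4%, beside 42.2% of the promoters of all genes tested. The 4 are shown because they are the battery genes with a match. Cyp1a2 and Nqo1, which rose by more than Tiparp, held none. A match is a description of the letters and was not tested for binding. They lie at chr9:57697363-57697612 on the plus strand (Cyp1a1), chr17:79715062-79715311 on the minus strand (Cyp1b1), chr13:74292332-74292581 on the minus strand (Ahrr) and chr3:65528197-65528446 on the plus strand (Tiparp) of GRCm38.p6. Each is written 5′ to 3′ in the direction of the gene, with the motif on either strand in capitals.
Cyp1a1: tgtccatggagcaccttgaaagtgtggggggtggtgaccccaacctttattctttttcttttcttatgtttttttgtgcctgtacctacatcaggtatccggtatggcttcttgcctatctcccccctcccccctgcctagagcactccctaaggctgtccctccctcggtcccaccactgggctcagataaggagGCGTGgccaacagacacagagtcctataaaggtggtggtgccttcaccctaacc
Cyp1b1: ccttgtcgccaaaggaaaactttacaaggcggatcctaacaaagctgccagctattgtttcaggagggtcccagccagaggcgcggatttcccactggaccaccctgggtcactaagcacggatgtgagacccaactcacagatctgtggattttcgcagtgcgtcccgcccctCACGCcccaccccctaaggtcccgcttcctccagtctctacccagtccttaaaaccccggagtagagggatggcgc
Ahrr: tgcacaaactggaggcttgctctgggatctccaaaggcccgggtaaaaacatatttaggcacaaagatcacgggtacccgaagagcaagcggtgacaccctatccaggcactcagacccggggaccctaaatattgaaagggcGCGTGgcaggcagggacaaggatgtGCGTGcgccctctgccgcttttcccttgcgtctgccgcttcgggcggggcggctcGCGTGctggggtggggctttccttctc
Tiparp: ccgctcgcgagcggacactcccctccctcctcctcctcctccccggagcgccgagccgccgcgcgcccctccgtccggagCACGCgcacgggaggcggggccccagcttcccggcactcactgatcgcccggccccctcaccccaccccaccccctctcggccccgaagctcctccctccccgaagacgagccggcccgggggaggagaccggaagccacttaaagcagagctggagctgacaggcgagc
Counted from the start site, the match lay at position -54 in Cyp1a1, -76 in Cyp1b1 and -170 in Tiparp, and Ahrr held 3, at -107, -82 and -27.

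Outside the battery, the largest rises were of genes that the control livers hardly expressed. Pnliprp1 (ENSMUSG00000042179, chromosome 19 from 58728887 to 58744169 on the plus strand), a relative of pancreatic lipase, had no count in the 3 controls and 5.46, 8.2 and 7.82 CPM at 3 µg/kg, at least 55.2-fold higher when 3 counts in each control library are taken as the floor (adjusted p = 1.19e-05). Ovol1 (ENSMUSG00000024922, chromosome 19 from 5549136 to 5560646 on the minus strand), a zinc finger factor of epithelial differentiation, also went from no count to 5.95, 6.26 and 7.44 CPM, at least 50.5-fold higher (adjusted p = 1.35e-08). Hmx1, a homeobox factor of the developing eye and nerves, had no count in the controls and 6.2, 2.2 and 1.12 CPM at 3 µg/kg, at least 24.5-fold higher. Its levels spread widely, with T1 the highest. The call of Hmx1 (adjusted p = 0.0176) was lost without V1 (adjusted p = 0.0517) or V3 (adjusted p = 0.0567) and with no low-count filter (adjusted p = 0.0517), and its fitted log2 fold change of 8.99 was 8.07 without T1.

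Col9a2 (ENSMUSG00000028626, chromosome 4 from 121039385 to 121055322 on the plus strand), a chain of the cartilage collagen IX, stood at 0, 0.0523 and 0.0803 CPM in the vehicle libraries and 13.5, 14.5 and 13.8 CPM at 3 µg/kg (adjusted p = 1.72e-11). From 3 pooled counts in the controls it was higher by a ratio of 327 (exact 95% interval from 111.5 to 1591). The treated livers lay within a narrow band while the controls had single counts or none, so that the fitted log2 fold change of 8.16 was 7.57 without V1 and 8.97 without V3. Col4a3, a basement membrane collagen chain, stood at 0.261, 0.261 and 0.321 CPM in the vehicle libraries and 37.7, 23.5 and 33.9 CPM at 3 µg/kg and rose 110.2-fold (adjusted p = 3.05e-11). Nptx1, a secreted pentraxin best known from neurons, stood at 0.56, 0.418 and 0.281 CPM in the vehicle libraries and 87.4, 112 and 111 CPM at 3 µg/kg and rose 242-fold (adjusted p = 3.51e-13). Both were separated from vehicle by a wide margin in every liver. A further 3 rises stood on low counts. Pooled counts of Sorcs3, a sorting receptor of the nervous system, were higher by a ratio of 116 (exact 95% interval from 31.5 to 964), those of Gpx2, the glutathione peroxidase of gut epithelium, by 114 (exact 95% interval from 19.9 to 4572), and those of A4gnt, a glycosyltransferase of gastric mucus, by 98.6 (exact 95% interval from 17.1 to 3951). These intervals cover counting error only. The fitted log2 fold changes of these 3, 6.47, 6.31 and 6.16, became 9.01 and 8.06 without V2 and, for A4gnt, 7.89 without V3. The remaining genes among the 15 largest rises, Dbp, Ciart and Bhlhe41, belong to the circadian clock and follow below.

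The 15 largest falls included a plasma carrier, an alpha-1-antitrypsin gene, a fatty acid P450, a pair of sulfotransferases and an uptake transporter, beside genes of no common class. Serpina7, the thyroxine-binding globulin, stood at 40.03, 48.6 and 73.9 CPM in the vehicle libraries and 1.22, 2.82 and 1.46 CPM at 3 µg/kg (log2 fold change -4.93, SE 0.71, adjusted p = 6.98e-05). Every treated liver was far below every control. Cyp4a14, a fatty acid omega-hydroxylase, stood at 1704, 1739.7 and 1783 CPM in the vehicle libraries and 76.7, 60.6 and 101 CPM at 3 µg/kg (log2 fold change -4.45, SE 0.98, adjusted p = 0.00525). The 3 controls were almost equal, and the treated livers lay far below them. Csad, the enzyme that makes hypotaurine for taurine, stood at 329.6, 212 and 251 CPM in the vehicle libraries and 17.9, 16 and 23.1 CPM at 3 µg/kg and fell 13.8-fold (adjusted p = 4.16e-07). Slco1a1, an uptake transporter for organic anions, stood at 55, 100.04 and 42.7 CPM in the vehicle libraries and 6.69, 1.59 and 2.12 CPM at 3 µg/kg (adjusted p = 0.00445). T1 was the highest of the treated livers, and the log2 fold change of -4.29 became -5.08 without it. Loxl4, a lysyl oxidase that crosslinks collagen, fell from 23.3 ± 4.66 to 0.936 ± 0.346 CPM (log2 fold change -4.63, SE 0.34, adjusted p = 2.54e-10). Adrb3, an adrenergic receptor best known from fat, fell from 6.98 ± 1.08 to 0.38 ± 0.0722 CPM (log2 fold change -4.12, SE 0.47, adjusted p = 7.38e-07).

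Serpina1e, an alpha-1-antitrypsin gene of a near-identical family, stood at 187, 515 and 165 CPM in the vehicle libraries and 11.8, 4.32 and 12.2 CPM at 3 µg/kg (adjusted p = 0.00457). V2 was the highest control, and the log2 fold change of -4.92 was -4.20 without it. V2 also stood above V1 and V3 for the sulfotransferase genes Sult3a2, at 5.6, 24 and 7.5 CPM in the controls and 0.571, 0.265 and 0.424 CPM at 3 µg/kg, and Sult2a7, at 11.3, 23.2 and 17.6 and 1.14, 1.23 and 1.12 CPM. Sult2a7 kept its call in every alternative (adjusted p = 0.00228), while that of Sult3a2 (log2 fold change -4.84, adjusted p = 0.00751) was 0.0507 without T3, and its log2 fold change was -3.92 without V2. Reads of such close copies that align to several genes were not counted, so these 3 levels are uncertain. Serpina4-ps1, a transcribed serpin pseudogene, stood at 8.28, 28.1 and 9.23 CPM in the vehicle libraries and 3.02, 0.441 and 0.616 CPM at 3 µg/kg (log2 fold change -3.55, adjusted p = 0.0181), and its call was lost without V2, T2 or T3 or in a fit of these 6 libraries alone (adjusted p from 0.0633 to 0.105). Its log2 fold change was -2.75 without V2 and -4.74 without T1. Mab21l2 and Adgrg2 had 1 pooled count each at 3 µg/kg. Mab21l2, a factor of eye development, was lower by a ratio of 72.1 (exact 95% interval from 12.7 to 2873), and Adgrg2, an adhesion receptor, by 53.2 (exact 95% interval from 9.26 to 2127). Their fitted log2 fold changes, -5.80 and -5.30, became -7.88 without T3 for Mab21l2 and, for Adgrg2, -7.45 without T1 and -4.43 without T3. Exons of Mab21l2 are shared to 36% with a gene on the other strand, and the strand setting of the counting is not given in the sources used here. The 15 falls also hold Arntl and Npas2 of the clock and Pdk4, described with fatty acid oxidation.

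**Figure D2:**
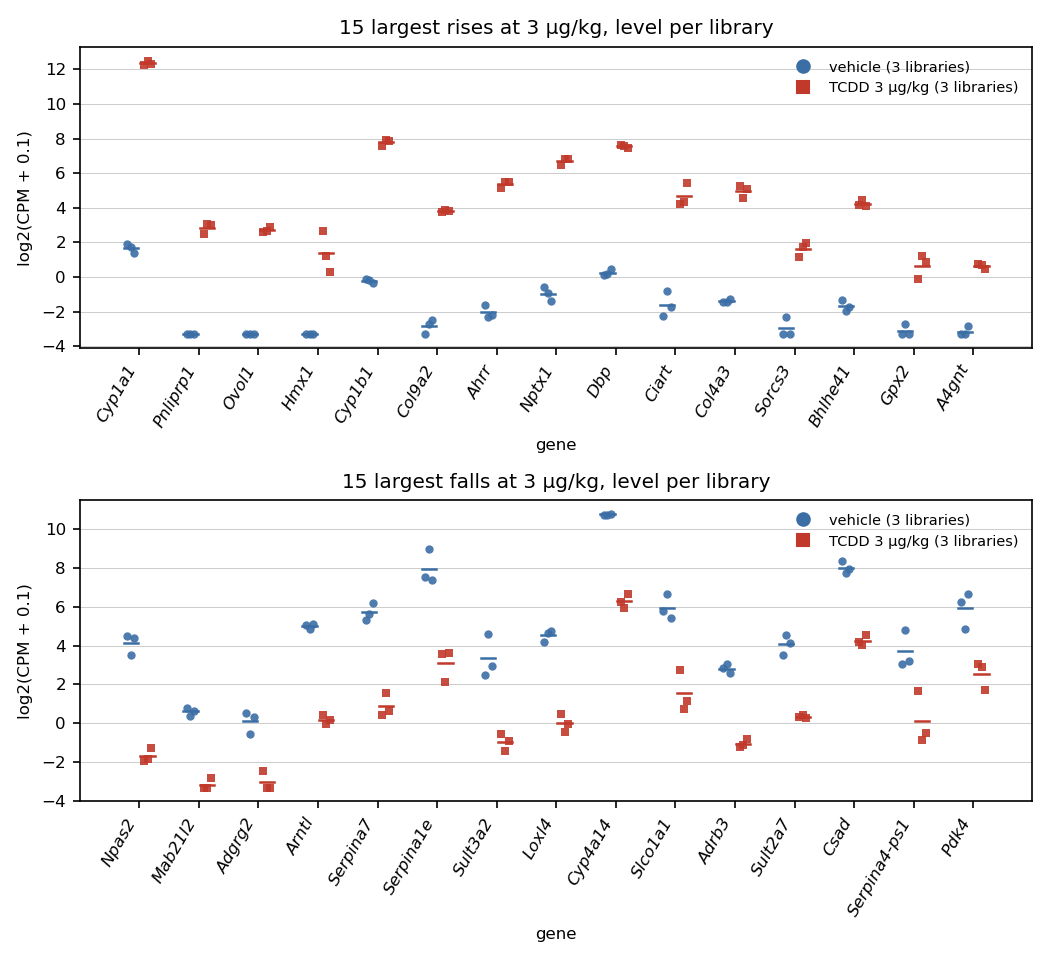
Level of the 15 largest rises (upper panel) and 15 largest falls (lower panel) in each of the 6 livers, as log2(CPM + 0.1), 1 point per library and short bars at the mean of the log2 values. Most of the rises start at or near 0 counts in vehicle, while falls such as Cyp4a14 (-4.45) and Csad (-3.79 in log2 fold change) start from well-expressed genes.

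Genes of the circadian clock changed in both directions: of 19 tested, 12 rose and 5 fell, and the median log2 fold change was 1.59. The clock is a feedback loop in which the ARNTL and CLOCK or NPAS2 proteins turn on their own repressors, the period and cryptochrome genes, and output factors such as DBP, through E-boxes with the letters CACGTG. Of the activators, Arntl stood at 33.9, 28.6 and 34.2 CPM in the vehicle libraries and 1.22, 0.882 and 1.002 CPM at 3 µg/kg (log2 fold change -4.96, SE 0.60, adjusted p = 5.5e-06). Npas2 stood at 22.2, 11.6 and 20.9 CPM in the vehicle libraries and 0.163, 0.176 and 0.308 CPM at 3 µg/kg (log2 fold change -6.23, SE 0.67, adjusted p = 8.11e-07). Clock fell from 40.7 ± 5.21 to 13.4 ± 3.46 CPM (adjusted p = 0.00147). The activators were thus lower in all 3 treated livers than in any control. Nfil3, a repressor of DBP target genes, stood at 45.6, 25.6 and 49.96 CPM in the vehicle libraries and 4.65, 4.67 and 4.55 CPM at 3 µg/kg and fell (log2 fold change -3.13, adjusted p = 3.75e-08). Cry1, a repressor of the loop that peaks late in its cycle, fell too, by 2.07 on the log2 scale (adjusted p = 2.18e-05). Dbp, the output factor, stood at 0.97, 1.05 and 1.28 CPM in the vehicle libraries and 198, 188 and 176 CPM at 3 µg/kg (log2 fold change 7.40, SE 0.54, adjusted p = 4.16e-09). Its relatives Tef and Hlf rose 8.55-fold and 1.89-fold (adjusted p = 1.98e-07 and 0.00308). The period gene Per3 stood at 1.68, 1.67 and 1.24 CPM in the vehicle libraries and 68.6, 56.3 and 82.7 CPM at 3 µg/kg (log2 fold change 5.50, SE 0.47, adjusted p = 4.11e-08). Per2 rose 19.5-fold (adjusted p = 1.48e-06).

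Ciart, a repressor of the ARNTL and CLOCK pair, stood at 0.112, 0.471 and 0.201 CPM in the vehicle libraries and 18.6, 20.5 and 43.1 CPM at 3 µg/kg (log2 fold change 6.79, SE 0.82, adjusted p = 7.63e-06). T3 was the highest by far, and the log2 fold change was 7.43 without V2. Bhlhe41, another E-box repressor, stood at 0.298, 0.157 and 0.201 CPM in the vehicle libraries and 17.6, 21.3 and 17.4 CPM at 3 µg/kg (log2 fold change 6.35, SE 0.42, adjusted p = 4.06e-11). Its paralog Bhlhe40 rose 3.01-fold (adjusted p = 0.00127). The nuclear receptors Nr1d1 and Nr1d2, which repress Arntl, rose 3.25-fold and 5.02-fold (adjusted p = 1.17e-05 and 2.83e-07), and Cry2 rose 2.22-fold (adjusted p = 0.0003). Per1 rose 8.03-fold (adjusted p = 0.0405), and its call was lost without V1, V2, V3, T1, T2 or T3 or with no low-count filter (adjusted p from 0.056 to 0.165). Among the members that did not pass was Rora, a nuclear receptor that activates Arntl, at 60.5 ± 8.08 CPM in vehicle and 50.6 ± 8.33 CPM at 3 µg/kg. Clock, Cry1, Cry2, Per1, Per2, Tef, Hlf, Nr1d1, Nr1d2 and Bhlhe40 were named after their values were seen. The count was 11 or 12 rises and 5 falls in every alternative.

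The hour at which the livers were taken is not given in the sources used here, so a shift in the time of collection between groups cannot be told apart from a change in the rhythm. The same genes already differed in level between the lower doses. Dbp stood at 1.21, 1.72 and 1.72 CPM at 0.01, 14.8, 18.9 and 5.995 CPM at 0.03 and 49.6, 45.8 and 62.4 CPM at 0.1 µg/kg, against 0.97, 1.05 and 1.28 CPM in vehicle. Arntl went the other way, from 28.9, 28.5 and 29.4 CPM at 0.01 to 18.5, 12.3 and 10.9 CPM at 0.1 µg/kg. At higher doses Dbp stood at 86.7, 103 and 192 CPM at 0.3 and 117, 152 and 111 CPM at 10 µg/kg. All livers at 10 µg/kg and 2 of 3 at 0.3 µg/kg lay below every liver at 3 µg/kg. At 30 µg/kg it stood at 49.5, 85.8 and 20.8 CPM. Exons of Dbp are shared to 18% with a gene on the other strand.

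**Figure D3:**
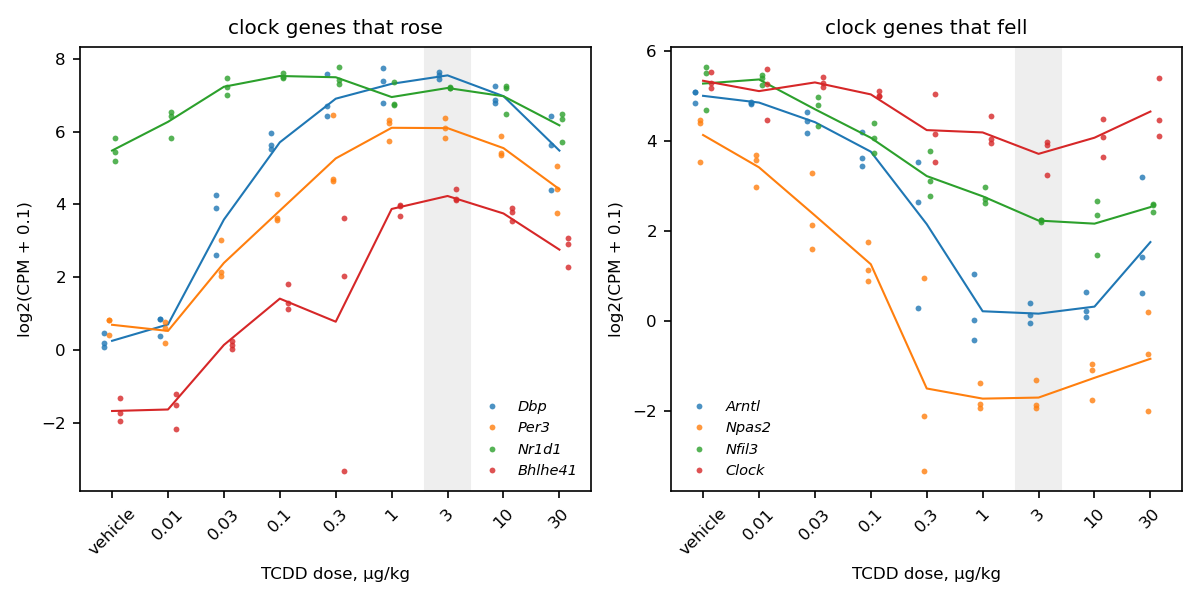
Level of 4 clock genes that rose (left) and 4 that fell (right) at 3 µg/kg, as log2(CPM + 0.1) against the dose group, 1 point per library, with lines through the means of the log2 values. The grey band marks 3 µg/kg. Dbp climbs from 0.01 to 1 µg/kg and Arntl declines over the same groups.

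E-box letters were found upstream of part of this list. RefSeq starts were matched for 16 clock genes, and CACGTG stood in the 250 bases before a start of 5 of them, Cry1, Per1, Tef, Bhlhe41 and Ciart, or 31.2% of them, against 9.59% of all tested genes with a matched start. The share was 12.6% for genes that rose, 8.83% for genes that fell and 9.45% for genes not called. Counted by promoter the clock list held it in 6 of 21, and 6.02% of all promoters in the table hold it. Dbp, Per3, Nr1d1, Nr1d2, Cry2, Hlf, Rora, Arntl, Npas2, Clock and Nfil3 held no match, and Cry1, which held one, fell. CACGTG reads the same on both strands. The windows of 2 genes with large rises are shown, Ciart at chr3:95882229-95882478 and Bhlhe41 at chr6:145865421-145865670, both on the minus strand of GRCm38.p6, written 5′ to 3′ in the direction of the gene with CACGTG in capitals.
Ciart: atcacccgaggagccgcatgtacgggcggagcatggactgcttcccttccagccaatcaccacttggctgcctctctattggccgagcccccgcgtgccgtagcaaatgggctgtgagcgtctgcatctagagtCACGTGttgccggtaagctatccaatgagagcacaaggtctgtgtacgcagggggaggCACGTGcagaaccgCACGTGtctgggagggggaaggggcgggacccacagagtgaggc
Bhlhe41: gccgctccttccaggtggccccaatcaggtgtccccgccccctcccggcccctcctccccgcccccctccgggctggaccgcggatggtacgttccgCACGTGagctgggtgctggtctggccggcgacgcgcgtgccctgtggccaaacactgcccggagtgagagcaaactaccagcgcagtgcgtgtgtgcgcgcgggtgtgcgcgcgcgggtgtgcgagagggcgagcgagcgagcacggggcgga
Ciart held 3 matches, at -116, -58 and -44 from its start, and Bhlhe41 1, at -153. Nothing in these data measures binding there.

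Glutathione and conjugation genes rose in part. Of 30 genes in the list of NRF2 targets and glutathione enzymes, 9 rose and none fell (median log2 fold change 0.38). Ugdh, which makes the UDP-glucuronic acid that glucuronidation consumes, stood at 145, 121 and 125 CPM in the vehicle libraries and 343, 416 and 421 CPM at 3 µg/kg and rose 3.02-fold (adjusted p = 3.3e-06). Gstm2, a glutathione transferase, stood at 36.2, 36.3 and 36.7 CPM in the vehicle libraries and 75.7, 84.4 and 93.3 CPM at 3 µg/kg (adjusted p = 0.00142), the 3 controls being nearly equal. Gstp2 rose 6.96-fold from 0.287 ± 0.108 CPM (adjusted p = 0.000334), and its close copy Gstp1 rose 2.94-fold (adjusted p = 0.00215), so their split is uncertain. Gstm3 rose 5.72-fold (adjusted p = 0.00212) and Gstt2 2.04-fold (adjusted p = 0.00302). Gstt3 rose 1.99-fold (adjusted p = 0.0411), and its call was lost without V1, V2, V3, T1, T2 or T3 or with no low-count filter (adjusted p from 0.0623 to 0.155). The efflux pump gene Abcc4 rose 3.42-fold (adjusted p = 0.013), and its call was lost without V3, T2 or T3 (adjusted p from 0.0573 to 0.0778). Gstp1, Gstm3, Gstt2, Gstt3 and Abcc4 were named after their values were seen. The most abundant members, Mgst1 and Gstm1, were not called, at 3058 ± 258 CPM in vehicle and 2801 ± 211 CPM at 3 µg/kg for Mgst1 and 1318 ± 247 CPM in vehicle and 1416 ± 262 CPM at 3 µg/kg for Gstm1. Over the alternatives between 7 and 12 of the 30 rose and none fell.

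Among 29 glucuronosyltransferase and sulfotransferase genes, 5 rose and 3 fell, beside 5.17% and 4.89% of all genes. Sult5a1, a sulfotransferase with few known substrates, stood at 36.7, 29.3 and 13.3 CPM in the vehicle libraries and 293, 287 and 359 CPM at 3 µg/kg and rose 11.8-fold (adjusted p = 2.12e-06). Ugt1a9 rose 2.59-fold (adjusted p = 0.000116), with 59.9% of its exons shared with other genes of the cluster. The abundant Ugt2b genes Ugt2b36 and Ugt2b5 were not called (adjusted p = 0.481 and 0.593). In a list of 40 tested genes of the Cyp2 and Cyp3a families and their reductase, 4 rose and none fell: Cyp2a4, Cyp2a5, Cyp2d9 and Por. Cyp2a5, a coumarin 7-hydroxylase, stood at 169.5, 115 and 131 CPM in the vehicle libraries and 1171, 1427 and 1962 CPM at 3 µg/kg and rose 11-fold (adjusted p = 6.28e-07), and its near-identical copy Cyp2a4 rose 4.17-fold (adjusted p = 0.000421). Cyp2d9, a steroid hydroxylase known for its higher level in males, stood at 51.9, 39.3 and 34.1 CPM in the vehicle libraries and 219, 297 and 187 CPM at 3 µg/kg (adjusted p = 1.77e-05). Por, the reductase that gives electrons to all microsomal P450s, rose 2.39-fold (adjusted p = 0.00096). The abundant Cyp2e1 and Cyp3a11 were not called (adjusted p = 0.502 and 0.439). Of 18 carboxylesterase and flavin monooxygenase genes 3 rose and 1 fell, beside the same shares. The carboxylesterase genes Ces2c and Ces1b rose 5.61-fold and 2.28-fold (adjusted p = 0.000185 and 8.8e-05). Ces1d, a lipase of the same family, fell from 929 ± 195 to 421 ± 89.1 CPM (adjusted p = 0.0162), and its call was lost without V1, V3, T1 or T2 (adjusted p from 0.0617 to 0.0918).

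Genes of fatty acid oxidation and ketogenesis mostly did not pass the test, and those that did fell: 9 of 40 fell and 1 rose, with a median log2 fold change of -0.28. Crat, the carnitine acetyltransferase that buffers acetyl-CoA, stood at 116, 107 and 119 CPM in the vehicle libraries and 16.8, 14.7 and 12.9 CPM at 3 µg/kg (log2 fold change -2.95, SE 0.48, adjusted p = 0.000205). Cpt2, which passes long-chain acyl groups into the mitochondrial matrix, fell from 213 ± 23.6 to 118 ± 12.9 CPM (adjusted p = 0.00453). Etfdh, which takes electrons from ETF, the acceptor of the acyl-CoA dehydrogenases, fell from 341 ± 4.55 to 206 ± 14.7 CPM (adjusted p = 0.00879). The call of Etfdh was lost without T2 (adjusted p = 0.0574). Pdk4, the kinase that shuts off pyruvate oxidation in fasting, stood at 75.4, 28.8 and 102 CPM in the vehicle libraries and 8.07, 7.41 and 3.16 CPM at 3 µg/kg (log2 fold change -3.52, adjusted p = 0.0195). The controls spread widely, and its call was lost without V3, T1, T2 or T3 (adjusted p from 0.0541 to 0.104). Cyp4a14, given above, was part of this list. Its relative Cyp4a10 stood at 740.1, 973 and 793 CPM in the vehicle libraries and 357, 377 and 260.2 CPM at 3 µg/kg. It was not called (adjusted p = 0.266), though all 3 treated livers lay below the controls, and 1 of 15 alternatives called it. The peroxisomal genes Ehhadh and Acaa1b fell by 1.03 and 1.24 on the log2 scale (adjusted p = 0.0331 and 0.0269). For Ehhadh the call was lost without V1, V2, V3, T1, T2 or T3 or with no low-count filter (adjusted p from 0.0596 to 0.132), and for Acaa1b the call was lost without V1, V2, V3, T1, T2 or T3 or with no low-count filter (adjusted p from 0.0598 to 0.127). The list kept 3 falls without T2 and 4 without V3, and the range over all alternatives was 3 to 13. Ehhadh and Acaa1b were named after their values were seen.

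Lipid uptake and droplet genes went both ways, 4 up and 4 down of 41 beside 5.17% and 4.89% of all genes, and the rises were 2 without V1, V2, V3, T1 or T3. Cd36, a fatty acid uptake receptor that AhR is known to induce, stood at 38.5, 60.8 and 78.5 CPM in the vehicle libraries and 274, 312 and 263 CPM at 3 µg/kg and rose 4.77-fold (adjusted p = 8.36e-07). Lpl, lipoprotein lipase, which adult hepatocytes normally hold at a low level, rose 3.19-fold (adjusted p = 0.018), and its call was lost without V1, V2 or T1 (adjusted p from 0.0662 to 0.068); it was named after its values were seen. Plin4 and Plin5, which coat lipid droplets, fell: Plin5 stood at 67.2, 62.5 and 57.7 CPM in the vehicle libraries and 23.6, 19.3 and 22 CPM at 3 µg/kg (adjusted p = 0.000603) and Plin4 at 8.92, 5.54 and 7.91 CPM in the vehicle libraries and 1.22, 1.41 and 1.54 CPM at 3 µg/kg (adjusted p = 0.00414). Both groups were tight. Apoa1, the main protein of high-density lipoprotein, stood at 8964, 11552 and 15851 CPM in the vehicle libraries and 5545, 2546 and 2323 CPM at 3 µg/kg (log2 fold change -1.80, SE 0.35, adjusted p = 0.000846), with T1 the highest treated liver and V1 the lowest control. Apoe and Apoa2 were not called (adjusted p = 0.335 and 0.647). Of 28 genes of fatty acid and triglyceride synthesis 3 rose and 4 fell, beside the same shares of all genes. Agpat2, an acyltransferase of the triglyceride pathway, fell from 242 ± 18.3 to 83.2 ± 6.99 CPM (log2 fold change -1.54, SE 0.19, adjusted p = 1.85e-06). Elovl2, an elongase of polyunsaturated fatty acids, fell from 745 ± 97.7 to 353 ± 34.1 CPM (adjusted p = 0.000995). The phosphatidate phosphatase gene Lpin2 rose 3.04-fold (adjusted p = 0.000109). Scd1, the abundant desaturase, stood at 11885, 14362 and 16354 CPM in the vehicle libraries and 6443, 14950.1 and 6031 CPM at 3 µg/kg, and T2 lay among the controls while T1 and T3 lay below them (adjusted p = 0.375).

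In the cholesterol list 2 of 29 genes rose and 3 fell, beside 5.17% and 4.89% of all genes. Insig2, which holds the sterol regulator SREBP in the endoplasmic reticulum, stood at 324, 418 and 379.6 CPM in the vehicle libraries and 81.1, 81.4 and 58.1 CPM at 3 µg/kg (log2 fold change -2.35, SE 0.30, adjusted p = 5.63e-06). Abcg1, a cholesterol efflux pump, rose from 6.23 ± 2.33 to 17 ± 1.92 CPM (adjusted p = 0.00154). Scap, the SREBP escort, fell from 187 ± 15.8 to 119.8 ± 8.16 CPM (adjusted p = 0.0083), and its call was lost without V1 or T2 (adjusted p from 0.0566 to 0.0651). Srebf2, the regulator itself, fell from 113 ± 22.2 to 68.4 ± 1.07 CPM (adjusted p = 0.0148), and its call was lost without V2, T1, T2 or T3 (adjusted p from 0.0516 to 0.123). The synthesis gene Sc5d was not called. In bile acid synthesis 1 of 19 genes rose and 2 fell, beside the same shares. Cyp8b1, the sterol 12-alpha-hydroxylase that sets the share of cholic acid, stood at 615, 462 and 597 CPM in the vehicle libraries and 127, 72.7 and 98.2 CPM at 3 µg/kg (log2 fold change -2.49, SE 0.38, adjusted p = 8.8e-05). Hsd3b7, which acts early in the pathway, stood at 960.4, 896 and 999.98 CPM in the vehicle libraries and 469, 465 and 454 CPM at 3 µg/kg (log2 fold change -1.04, SE 0.18, adjusted p = 0.000206). In each case the 3 treated livers lay below all controls. Cyp46a1, a cholesterol hydroxylase best known from brain, rose 2.4-fold (adjusted p = 0.0135), and its call was lost without V2, V3, T2 or T3 (adjusted p from 0.0604 to 0.086). Cyp7a1, the rate-limiting enzyme, stood at 115, 220.4 and 61.4 CPM in the vehicle libraries and 68.5, 31.5 and 109.5 CPM at 3 µg/kg (adjusted p = 0.45); it was named after its values were seen. Of 23 transporters 3 rose and 1, Slco1a1, fell, beside the same shares. Slc22a3, an organic cation transporter, rose 2.23-fold (adjusted p = 0.00411), whereas the bile acid uptake gene Slc10a1 and the canalicular pump gene Abcc2 were not called (adjusted p = 0.743 and 0.215).

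**Figure D4:**
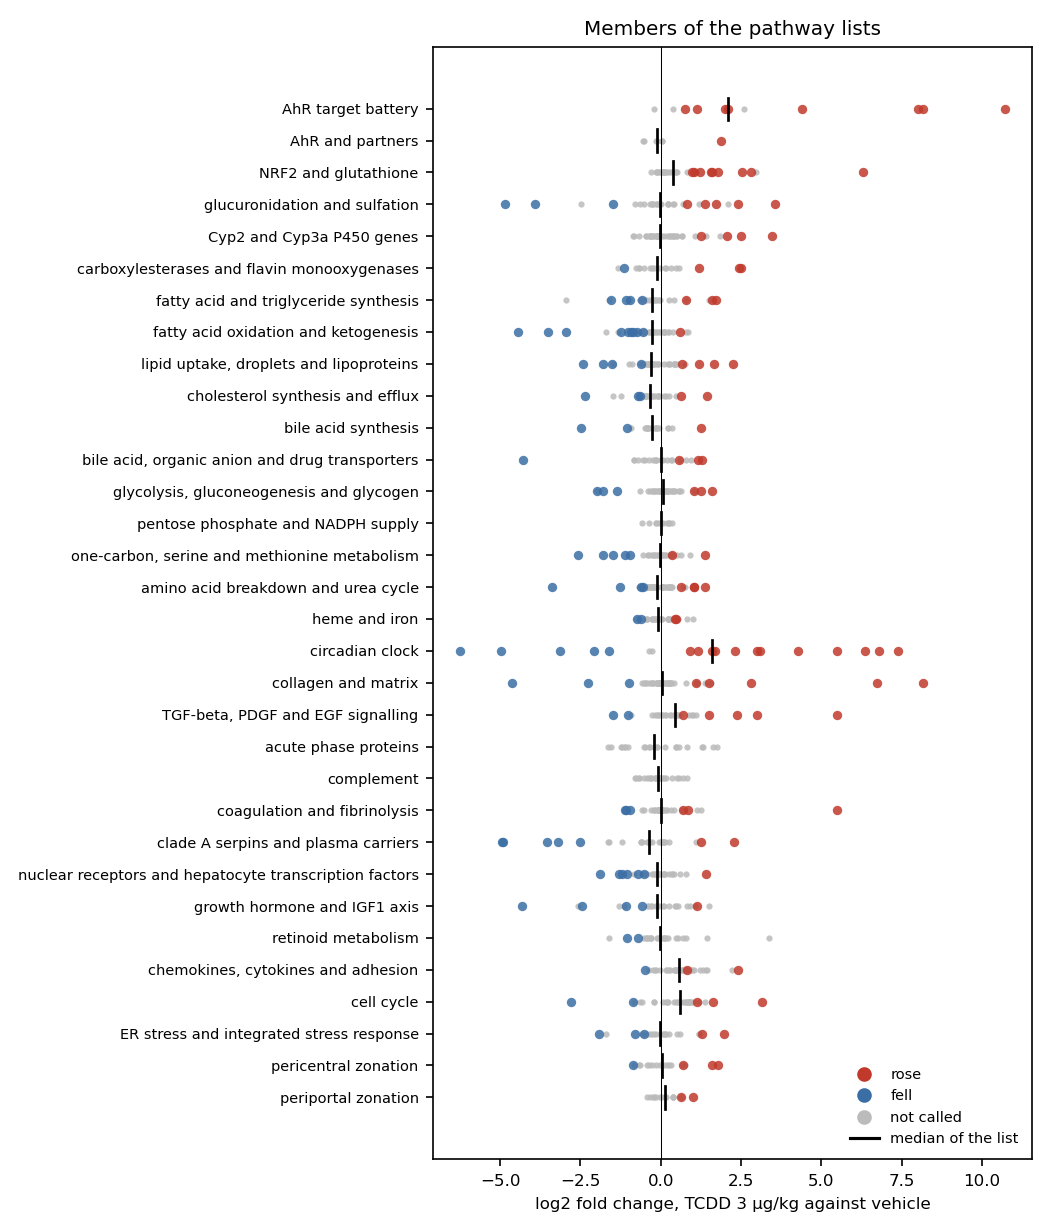
Log2 fold change of TCDD 3 µg/kg against vehicle (horizontal axis) for each tested member of each pathway list (rows), with called members coloured by direction, uncalled members in grey and a bar at the list's median. The battery and the clock list spread far to the right, with medians of 2.09 and 1.59; most other lists centre near 0, and the median over all genes was -0.03.

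Of 39 genes of glycolysis, gluconeogenesis and glycogen 3 rose and 3 fell, close to the 5.17% and 4.89% of all genes. The pyruvate kinase genes moved in opposite directions. Pklr, the liver form, stood at 271, 241 and 239.5 CPM in the vehicle libraries and 95.8, 88.8 and 106 CPM at 3 µg/kg and fell (log2 fold change -1.37, adjusted p = 0.00285), while Pkm, the form of muscle and dividing cells, stood at 10.9, 6.33 and 8.83 CPM in the vehicle libraries and 18.3, 19.5 and 24.4 CPM at 3 µg/kg and rose (log2 fold change 1.25, adjusted p = 0.00142). Pklr shares 22% of its exons with a gene on the other strand. Ppp1r3b and Ppp1r3c, which bring a phosphatase to glycogen, both fell: Ppp1r3c from 168 ± 53.8 to 42.3 ± 4.23 CPM (adjusted p = 4.34e-05) and Ppp1r3b from 270.04 ± 149 to 78.4 ± 13.3 CPM (adjusted p = 0.000465). Pck1, the key gluconeogenic gene, overlapped between the groups, at 1558, 1102 and 1834 CPM in the vehicle libraries and 1919.7, 1172 and 2829.6 CPM at 3 µg/kg (adjusted p = 0.58). None of 11 pentose phosphate and NADPH genes was called by edgeR, in the test as set or under any alternative including DESeq2, and 1 of the 11 had an unadjusted p below 0.05.

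In one-carbon, serine and methionine metabolism 5 of 33 genes fell and 2 rose. The rises became 0 without V2, V3, T2 or T3 and were 5 without the shallowest library or in a fit of the 6 libraries alone, while 4 to 6 genes fell over the alternatives. Gldc and Amt, subunits of the glycine cleavage system, fell together: Gldc stood at 274, 256 and 270.4 CPM in the vehicle libraries and 98.6, 81.3 and 104 CPM at 3 µg/kg (adjusted p = 1.85e-06), and Amt fell from 70.5 ± 6.57 to 33 ± 5.1 CPM (adjusted p = 3.28e-05). Bhmt, which remethylates homocysteine from betaine, stood at 378, 886 and 607 CPM in the vehicle libraries and 236, 173 and 126 CPM at 3 µg/kg (adjusted p = 0.00192), with wide spread among the controls. Mat1a was not called (adjusted p = 0.128), and Aldh1l1, a folate enzyme, lay just outside the threshold with no overlap, at 1563 ± 111 CPM in vehicle and 2967 ± 282 CPM at 3 µg/kg (adjusted p = 0.0506). Aldh1l1 was called in 6 of 15 alternatives. Of 44 genes of amino acid breakdown and the urea cycle 4 rose and 4 fell, beside 5.17% and 4.89% of all genes. Hao1 (ENSMUSG00000027261, chromosome 2 from 134497361 to 134554368 on the minus strand), the peroxisomal glycolate oxidase that feeds oxalate production, stood at 112, 193 and 175 CPM in the vehicle libraries and 22.5, 10.5 and 13.4 CPM at 3 µg/kg (log2 fold change -3.37, SE 0.29, adjusted p = 8.83e-09). The highest treated liver, T1, was well under the lowest control. Tdo2, which opens the tryptophan ring, stood at 722, 769 and 892 CPM in the vehicle libraries and 1635, 1552 and 1666 CPM at 3 µg/kg (adjusted p = 0.000847), and Acmsd, further down that pathway, fell from 21.5 ± 0.847 to 8.88 ± 1.24 CPM (adjusted p = 0.00307). Asrgl1, an asparaginase, rose 2.62-fold (adjusted p = 1.61e-05). Cps1 and Hpd were not called (adjusted p = 0.608 and 0.856). In the heme and iron list 2 of 29 rose and 2 fell, all by less than 2-fold and near the 5.17% and 4.89% of all genes. The 2 rises, Fech and Blvra, became 0 without V2, without V3 or with no low-count filter, and the fall of Uros was lost without any one of the 6 libraries; these 3 were named after their values were seen. The strongest call was Hfe2, hemojuvelin, a co-receptor for bone morphogenetic proteins that raises hepcidin expression. Hfe2 fell from 111 ± 11.2 to 66 ± 16.1 CPM (adjusted p = 0.00488), and its call was lost without T3 (adjusted p = 0.0614).

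Some secreted plasma proteins fell. In the list of clade A serpins and plasma carriers 5 of 28 fell and 2 rose (median log2 fold change -0.36). Beside Serpina7, Serpina1e and Serpina4-ps1 above, Mup3, a pheromone-binding major urinary protein, stood at 2313, 3133 and 2704 CPM in the vehicle libraries and 368, 259 and 255 CPM at 3 µg/kg (log2 fold change -3.21, SE 0.55, adjusted p = 0.000347). Selenbp2 fell from 14.3 ± 0.652 to 2.52 ± 0.574 CPM (adjusted p = 0.0018). Serpina6, the corticosteroid-binding globulin, moved the other way, at 449, 244 and 445 CPM in the vehicle libraries and 1539, 2024 and 1972 CPM at 3 µg/kg (log2 fold change 2.28, SE 0.35, adjusted p = 6.89e-05). Alb itself stood at 139107 ± 49133 CPM in vehicle and 108428 ± 13981 CPM at 3 µg/kg and was not called (adjusted p = 0.486). Mup genes are near-identical copies, so the level of Mup3 is uncertain. In coagulation 3 of 31 genes rose and 3 fell, beside 5.17% and 4.89% of all genes. The falls were the fibrinogen chains: Fgb fell from 6224 ± 1373 to 2895 ± 641 CPM (adjusted p = 0.00666), and its call was lost without V3 (adjusted p = 0.0551); Fgg fell from 4629 ± 819 to 2189 ± 274 CPM (adjusted p = 0.0126), and its call was lost without V3, T2 or T3 (adjusted p from 0.062 to 0.0813). Fga fell by 0.97 on the log2 scale (adjusted p = 0.0483), and its call was lost without V1, V2, V3, T1, T2 or T3, with RLE factors, with upper-quartile factors, with no low-count filter, with a minimum of 30 counts, with non-robust dispersion or without the shallowest library (adjusted p from 0.0515 to 0.231); it was named after its values were seen. None of 23 acute phase and 26 complement genes was called by edgeR, where 8 and 3 had an unadjusted p below 0.05. With non-robust dispersion 1 acute phase gene was called lower. DESeq2 called 0 and 0, and a fit of these 6 libraries alone called 5 acute phase genes up and 5 down and 1 complement gene up and 3 down. Hp, haptoglobin, stood at 1967, 2305 and 3090.2 CPM in the vehicle libraries and 933, 756 and 696 CPM at 3 µg/kg (adjusted p = 0.113), with all 3 treated livers below the controls.

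Of 31 nuclear receptors and hepatocyte transcription factors 1 rose and 6 fell. Ppargc1b, a coactivator of mitochondrial genes, rose 2.64-fold from 3.16 ± 1.42 CPM (adjusted p = 0.00296). Thra, a thyroid hormone receptor, fell from 21 ± 1.74 to 10.1 ± 1.56 CPM (adjusted p = 0.001), and Ppard fell from 19.6 ± 2.86 to 8.35 ± 3.55 CPM (adjusted p = 0.00121). Onecut1, a factor of hepatocyte and bile duct development, stood at 10.1, 16.2 and 6.42 CPM in the vehicle libraries and 3.26, 2.29 and 3.16 CPM at 3 µg/kg (adjusted p = 0.00771); its call was lost without V2 or T2 (adjusted p from 0.0517 to 0.0612), and 52.8% of its exons are shared with a gene on its strand. Hnf4a and Nr1i3, which encodes the xenobiotic receptor CAR, were not called (adjusted p = 0.879 and 0.18). In the growth hormone and IGF1 list 4 of 25 fell and 1 rose. Igfbp2, an IGF binding protein, stood at 547, 519 and 520.2 CPM in the vehicle libraries and 119, 62.3 and 112 CPM at 3 µg/kg (log2 fold change -2.44, SE 0.43, adjusted p = 0.000499). Stat5a, a transcription factor downstream of the growth hormone receptor, fell from 35.1 ± 5.78 to 16.5 ± 3.39 CPM (adjusted p = 0.0023). Stat5b fell from 86.8 ± 13.9 to 57.4 ± 5.67 CPM (adjusted p = 0.00761), and its call was lost without V3 or T1 (adjusted p from 0.0628 to 0.0691). Hsd3b5, a steroid enzyme known as a male-biased growth hormone target, was low and uneven, at 1.42, 4.86 and 0.161 CPM in the vehicle libraries and 0, 0.176 and 0.116 CPM at 3 µg/kg (log2 fold change -4.32, adjusted p = 0.00974). Its call was lost without V2 or T3 (adjusted p from 0.0606 to 0.105), and the log2 fold change without V2 was -2.92. Igf1 was not called (adjusted p = 0.796). Of 25 retinoid genes none rose and 2 fell, beside 5.17% and 4.89% of all genes. Adh4, a retinol dehydrogenase, fell from 114 ± 19.9 to 55.1 ± 5.73 CPM (adjusted p = 0.00058). Dhrs3, which reduces retinal, fell from 338 ± 67 to 206 ± 19.3 CPM (adjusted p = 0.00906). For Dhrs3 the call was lost without V3 or T3 (adjusted p from 0.0653 to 0.1).

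The fibrillar collagens of scar tissue did not pass the test, while single matrix genes changed by large factors. Of 47 collagen and matrix genes 5 rose and 3 fell, beside 5.17% and 4.89% of all genes. Col1a2 stood at 22, 15.4 and 22.4 CPM in the vehicle libraries and 17, 31 and 23.4 CPM at 3 µg/kg and Col3a1 at 46.5, 25.2 and 44.4 CPM in the vehicle libraries and 27.4, 46 and 37.1 CPM at 3 µg/kg (adjusted p = 0.691 and 0.945), with the groups overlapping. Beside Col9a2, Tnc, the wound matrix protein tenascin C, stood at 1.38, 0.628 and 1.65 CPM in the vehicle libraries and 7.09, 9.43 and 9.52 CPM at 3 µg/kg and rose 6.98-fold (adjusted p = 1.62e-05). Mmp7, matrilysin, named after its values were seen, had no count in the controls and 0.571, 0.882 and 0.539 CPM at 3 µg/kg, at least 5.12-fold higher on the same floor (adjusted p = 0.00647). Beside Loxl4, Col27a1, a minor fibrillar collagen, fell from 27.1 ± 8.86 to 5.67 ± 3.15 CPM (adjusted p = 7.37e-05). Col4a3, given above, was not a member of the list. In the list of TGF-beta, PDGF and EGF signalling 5 of 31 rose and 2 fell, and no fall was left without V3, T2 or T3. Tgfb2, a ligand, stood at 0.336, 0.261 and 0.321 CPM in the vehicle libraries and 1.71, 2.65 and 3.04 CPM at 3 µg/kg (log2 fold change 2.99, SE 0.45, adjusted p = 4.16e-05). The ErbB ligands Nrg1 and Nrg4 rose 5.16-fold and 2.85-fold (adjusted p = 0.00672 and 0.000221), Nrg1 from 0.138 ± 0.0296 CPM and Nrg4 from 2.74 ± 0.571 CPM. The ErbB family receptor genes Egfr and Erbb3 were not called (adjusted p = 0.352 and 0.0922).

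Of 31 cell cycle genes 3 rose and 2 fell, beside 5.17% and 4.89% of all genes, with 1 to 7 rises and 1 to 3 falls over the alternatives. Ccne1, cyclin E1, which drives entry into S phase, stood at 0.112, 0.261 and 0.161 CPM in the vehicle libraries and 0.978, 1.68 and 1.96 CPM at 3 µg/kg and rose 8.86-fold (adjusted p = 9.17e-05). Cdkn1a, the inhibitor p21, stood at 16.5, 33.8 and 37.6 CPM in the vehicle libraries and 5.79, 4.76 and 2.62 CPM at 3 µg/kg (adjusted p = 0.0166), and its call was lost without V3, T2 or T3 (adjusted p from 0.058 to 0.0979). Mcm6, a replication helicase subunit, rose 2.17-fold (adjusted p = 0.0203), and its call was lost without V1, V2, V3 or T3 (adjusted p from 0.0594 to 0.0696). Ccnd1 and Cdkn1b were not called (adjusted p = 0.139 and 0.0709), but Cdkn1b was called in 7 of 15 alternatives. Of 23 genes of ER stress and the integrated stress response 2 rose and 3 fell, beside the same shares of all genes. Trib3, a pseudokinase, stood at 4.63, 4.34 and 5.66 CPM in the vehicle libraries and 19.8, 21.8 and 16.5 CPM at 3 µg/kg and rose 3.95-fold (adjusted p = 4.97e-05), and Herpud1, part of ER-associated degradation, rose 2.44-fold (adjusted p = 0.00439). Atf5, a stress transcription factor, stood at 459, 874 and 671 CPM in the vehicle libraries and 234, 182 and 109 CPM at 3 µg/kg (log2 fold change -1.93, SE 0.31, adjusted p = 8.82e-05). Atf4, the central factor of the response, fell from 122 ± 12 to 69.9 ± 5.36 CPM (adjusted p = 0.0063), and its call was lost without V3 or T3 (adjusted p from 0.0504 to 0.0528). The ER chaperone genes Hspa5 and Hsp90b1 were not called (adjusted p = 0.473 and 0.643).

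Genes of liver zonation and cell type markers were looked at in turn. Of 18 pericentral genes 3 rose and 1 fell, beside 5.17% and 4.89% of all genes. Slc1a2, a glutamate transporter of the cells around the central vein, stood at 216, 244 and 159.6 CPM in the vehicle libraries and 702, 690.4 and 753 CPM at 3 µg/kg (log2 fold change 1.79, SE 0.19, adjusted p = 2.69e-07). Slc13a3, a dicarboxylate transporter, rose 2.997-fold (adjusted p = 6.68e-05), whereas Cldn2, a tight junction gene, fell from 142 ± 11.8 to 78.3 ± 10.9 CPM (adjusted p = 0.00248). Of 15 periportal genes 2 rose, Arg1 and Aldh1b1, and both calls were weak. Arg1 (adjusted p = 0.0317) lost its call without V1, V2, V3, T1 or T3 or with no low-count filter (adjusted p from 0.0523 to 0.157), and Aldh1b1 (adjusted p = 0.0496) lost its call without V1, V2, V3, T1, T2 or T3 or with no low-count filter (adjusted p from 0.0656 to 0.183). Among bile duct markers 1 of 11 rose and 1 fell, beside the same shares. Prom1 stood at 2.87, 2.04 and 1.04 CPM in the vehicle libraries and 12, 19 and 18.1 CPM at 3 µg/kg (adjusted p = 0.000791) and Sox9 at 6.79, 5.28 and 9.43 CPM in the vehicle libraries and 3.02, 2.56 and 1.19 CPM at 3 µg/kg (adjusted p = 0.00822), and for Sox9 the call was lost without V3 or T3 (adjusted p from 0.055 to 0.0799). The summed level of the 11 activated stellate cell or fibroblast markers was 91.5 to 122 CPM in vehicle and 88.8 to 135 CPM at 3 µg/kg, with no call. Of 14 markers of recruited macrophages and monocytes 2 rose and 1 fell. Gpnmb stood at 0.224, 0.0523 and 0.281 CPM in the vehicle libraries and 1.63, 4.41 and 2.2 CPM at 3 µg/kg (adjusted p = 0.0386), and its call was lost without V1, V2, V3, T2 or T3 or with no low-count filter (adjusted p from 0.0658 to 0.135). Itgax stood at 1.45, 0.523 and 0.803 CPM in the vehicle libraries and 1.3, 4.67 and 2.81 CPM at 3 µg/kg (adjusted p = 0.0342), and its call was lost without V2, V3, T2 or T3, with no low-count filter or in a fit of these 6 libraries alone (adjusted p from 0.0535 to 0.209). Cd9, a tetraspanin, fell from 21.2 ± 2.75 to 9.12 ± 1.87 CPM (adjusted p = 0.00689). The 14 summed to 83.4 to 121 CPM in vehicle and 99.1 to 133 CPM at 3 µg/kg, and their median log2 fold change was 1.01. All 3 treated livers lay above all controls for 10 of them and below for 2, against 16.1% and 17.5% of all genes. Such an upward separation was also seen for 9 of 12 neutrophil, 5 of 8 B cell and 4 of 7 dendritic cell markers tested. It was seen for 3 of 10 Kupffer cell and 3 of 13 T and NK cell markers. In these 5 lists 0 markers were separated downward.

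The 10 Kupffer cell markers, all detected, had no call and summed to 425 to 538 CPM in vehicle and 621 to 670.1 CPM at 3 µg/kg. None of 12 neutrophil markers was called, and their sum was 3.77 to 6.53 CPM in vehicle and 10.3 to 17.8 CPM at 3 µg/kg, higher in each treated liver. Cr2, 1 of 8 B cell markers, and 1 of 13 T and NK cell markers, Klrb1c, rose, and neither call held in every alternative. For Cr2 (adjusted p = 0.0416) the call was lost without V1, V2, V3, T1, T2 or T3, with no low-count filter or by DESeq2 (adjusted p from 0.0723 to 0.128), and for Klrb1c (adjusted p = 0.0362) the call was lost without V1, V3, T1 or T3 or with no low-count filter (adjusted p from 0.0682 to 0.191). No marker of dendritic cells (7), red cell precursors (5), platelets (3) or mesothelial cells (5) was called. Pnliprp1, among the largest rises, is a gene of the pancreatic acinar cell. Of that list's 15 markers 7 were at 0 in all 6 libraries, namely Cela3b, Cpa1, Cpb1, Amy2a1, Pnlip, Try4 and Cel, and 5 could be tested. Cela1 stood at 16.6, 20.7 and 17.1 CPM in the vehicle libraries and 4.97, 5.56 and 5.43 CPM at 3 µg/kg and fell (log2 fold change -1.77, SE 0.19, adjusted p = 3.91e-07). Skeletal muscle genes stood out in V3: Acta1, the actin of muscle, was at 0, 0.0523 and 46.4 CPM in the controls and 0.245, 0.97 and 8.51 CPM at 3 µg/kg. It was not called (log2 fold change -2.12), and without V3 its log2 fold change was 6.99 (adjusted p = 0.0088). Mylpf, a muscle myosin light chain, was also highest in V3, at 0.56, 0.889 and 8.71 CPM in the controls. Beside these counts of 0 by edgeR, an unadjusted p below 0.05 was seen for 3 dendritic cell, 1 Kupffer cell, 1 activated stellate cell and no neutrophil, red cell, platelet or mesothelial marker. DESeq2 called none in these lists, and the fit of the 6 libraries alone called 2 Kupffer cell, 3 neutrophil and 1 activated stellate cell markers higher. The part of the immune, muscle and other markers in the results above was not tested.

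Of 34 chemokine, cytokine and adhesion genes 2 rose and 1 fell (median log2 fold change 0.57), beside 5.17% and 4.89% of all genes. Ccl22, a chemokine that draws regulatory T cells, stood at 0.261, 0.261 and 0.0803 CPM in the vehicle libraries and 0.815, 1.23 and 1.16 CPM at 3 µg/kg (adjusted p = 0.00961), a change at very low level whose call was lost without V3 (adjusted p = 0.0724). Vcam1, an adhesion molecule of endothelium, stood at 13.4, 8.11 and 12 CPM in the vehicle libraries and 21.9, 21.3 and 16.8 CPM at 3 µg/kg (adjusted p = 0.023), and its call was lost without V2, V3, T1 or T2 (adjusted p from 0.0573 to 0.139). Cxcl12, a chemokine of stromal cells, fell by 0.48 on the log2 scale (adjusted p = 0.0385), and its call was lost without any of the 6 libraries, with RLE or upper-quartile factors or with no low-count filter (adjusted p from 0.0554 to 0.215). Over the alternatives 0 to 9 genes of the list rose. Among the resident cells of the sinusoid, 1 of 12 stellate cell markers rose, Reln, and 1 of 12 endothelial markers, Flt4 (adjusted p = 0.0385 and 0.019). Both calls were lost without V2, V3, T2 or T3, and that of Reln also without V1. The stellate markers summed to 376 to 577 CPM in vehicle and 442 to 585 CPM at 3 µg/kg and the endothelial markers to 337 to 448 CPM in vehicle and 429 to 482 CPM at 3 µg/kg. Of 5 plasma cell markers tested only Sdc1 was called. Sdc1, syndecan 1, which hepatocytes also make, stood at 313, 300.1 and 277 CPM in the vehicle libraries and 126, 139.8 and 166 CPM at 3 µg/kg and fell (log2 fold change -1.04, adjusted p = 0.000478). Of 8 adipocyte markers Plin1 and Lep had no count in any of the 6 libraries, and Fabp4, which alone could be tested, was not called (adjusted p = 0.316).

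Livers at 3 µg/kg were also set against the neighbouring doses, to place the changes on the dose scale. Against 0.3 µg/kg 293 genes were called (1.94%), 183 higher (1.21%) and 110 lower (0.727%). The count was 100 without the first library at 0.3 µg/kg, 152 without T2 and 140 without T3, and the second library at 0.3 µg/kg has only 434011 counts; without it the count was 228. Against 1 µg/kg 94 genes were called (0.622%), 47 in each direction (0.311%). The direction was no more stable than the count: 123 of 344 calls were higher at 3 µg/kg by DESeq2, 208 of 949 without the second library at 1 µg/kg and 15 of 17 without T3. That count rested on the libraries chosen: it was 28 without the first library at 1 µg/kg and 41, 24 and 17 without T1, T2 and T3. Between 10 and 3 µg/kg 160 genes were called (1.06%), 102 higher at 10 (0.675%) and 58 lower (0.384%), with 75, 95 and 73 without T1, T2 and T3 and 71 without the third library at 10 µg/kg. These comparisons share the 3 µg/kg libraries with one another and with the comparison against vehicle.

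The battery genes differed in where on the dose scale their level changed. Cyp1a1 stood at 2122, 3543 and 3528 CPM at 0.3 µg/kg, against 4803, 5809 and 5170.5 CPM at 3 and 4941, 6381 and 5885 CPM at 10 µg/kg, and none of the steps was called (adjusted p = 0.0624 against 0.3 and 0.924 for 10 against 3). Cyp1b1 stood at 1.7, 5.75 and 2.7 CPM at 0.3, 162, 135 and 122 CPM at 1 and 581, 727 and 850.0 CPM at 10 µg/kg. It was higher at 3 than at 0.3 µg/kg by 6.58 on the log2 scale (adjusted p = 7.03e-12) and higher again at 10 by 1.70 (adjusted p = 0.000219), the step from 1 to 3 not being called (adjusted p = 0.158). Ahrr stood at 2.22, 8.62 and 3.89 CPM at 0.3 and 23.6, 21.3 and 13.6 CPM at 1 µg/kg, and 3 µg/kg was above both (log2 fold change 3.69, adjusted p = 1.72e-09, and 1.10, adjusted p = 0.00781). Tiparp rose between 0.3 and 3 µg/kg (log2 fold change 1.74, SE 0.32, adjusted p = 0.00281) and between 3 and 10 µg/kg (log2 fold change 1.34, SE 0.26, adjusted p = 0.00797). In all, 4 battery genes were higher at 3 than at 0.3 µg/kg, 1 higher than at 1, and 2 higher again at 10. The shares of all genes higher in these comparisons were 1.21%, 0.311% and 0.675%.

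Several genes changed mostly between 1 and 10 µg/kg. Col9a2 stood at 0, 0 and 0.0659 CPM at 0.3, 0.476, 0.965 and 0.871 CPM at 1, 13.5, 14.5 and 13.8 CPM at 3 and 125, 211 and 242 CPM at 10 µg/kg. It was higher at 3 than at 1 µg/kg (log2 fold change 4.12, SE 0.34, adjusted p = 9.79e-08) and higher at 10 than at 3 (log2 fold change 3.79, SE 0.28, adjusted p = 5.49e-09), with no overlap between neighbouring groups from 1 µg/kg on. Ovol1 had no count at 0.3 µg/kg and 0.892, 1.75 and 2.39 CPM at 1, below 5.95, 6.26 and 7.44 CPM at 3 (adjusted p = 0.00781), and was not called between 3 and 10 µg/kg (adjusted p = 0.418). Hao1 moved down over the same range: it stood at 137, 132 and 174 CPM at 0.3, 96.4, 62.1 and 52.8 CPM at 1, 22.5, 10.5 and 13.4 CPM at 3 and 0, 0.0928 and 0.127 CPM at 10 µg/kg. It was lower at 3 than at 0.3 (adjusted p = 6.72e-08) and at 1 µg/kg (log2 fold change -2.19, SE 0.28, adjusted p = 9.55e-05), and lower again at 10, where it was nearly without counts (adjusted p = 2.47e-10). Other steps upward from 1 to 3 µg/kg were seen in Pnliprp1 (adjusted p = 0.0104), Src (log2 fold change 1.15, adjusted p = 0.0144), and the low-level genes Ap1m2, an epithelial sorting adaptor (3.10, adjusted p = 0.000456), Cnksr1, a signalling scaffold (2.95, adjusted p = 0.00029), and Slc44a4, a thiamine pyrophosphate transporter (2.48, adjusted p = 0.00511). Downward from 1 to 3 µg/kg, Gria3 fell by 2.96 (adjusted p = 0.0377), Kcnj2 by 2.69 (adjusted p = 0.0102) and Anxa1, annexin A1, by 2.59 (adjusted p = 0.0195) on the log2 scale. Kcnj2 and Anxa1 were not called against vehicle (adjusted p = 0.138 and 0.935). Gria3 was (adjusted p = 0.0206), but that call was lost without V3, T1 or T3 (adjusted p from 0.0733 to 0.168). Of 12 neutrophil markers tested, 3 were also lower at 3 than at 1 µg/kg, beside 0.311% of all genes (median log2 fold change -5.16). The part of such differences between livers in these steps was not tested. As given above, the calls of this step depended on the libraries used.

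Between 0.3 and 3 µg/kg, 9 genes of fatty acid oxidation and ketogenesis were lower at 3 and none higher, against 0.727% of all genes lower (median log2 fold change -0.68). Cyp4a14 stood at 2241, 1439 and 444 CPM at 0.3 and 3.45, 163 and 189.8 CPM at 1 µg/kg, so that its level at 3 µg/kg lay within the spread of the 1 µg/kg livers and below all those at 0.3 (adjusted p = 0.0308). Csad stood at 260.0, 229.9 and 109.8 CPM at 0.3, 21.6, 18.7 and 39.99 CPM at 1 and 33.9, 38.5 and 77.2 CPM at 10 µg/kg, with the lowest levels at 3 (log2 fold change -3.37, SE 0.39, adjusted p = 1.15e-05 against 0.3; adjusted p = 0.0669 for 10 against 3). Already at 0.03 µg/kg it stood at 86.2, 149.9 and 116 CPM, under all the controls, while at 0.3 µg/kg the highest libraries lay among the controls. Mup3 was lower at 3 than at 0.3 µg/kg by 2.89 on the log2 scale (adjusted p = 0.00456). Serpinb1a, an inhibitor of neutrophil proteases, stood at 31.7, 34.5 and 18.1 CPM at 0.3 and 12.3, 9.93 and 8.05 CPM at 1 against 2.04, 2.2 and 2.58 CPM at 3 µg/kg (adjusted p = 1.83e-05 and 0.0114). Meg3, an imprinted long non-coding RNA, stood at 13.2, 14.4 and 22.4 CPM at 0.3 and 0.897, 0.265 and 1.5 CPM at 3 µg/kg (log2 fold change -4.14, SE 0.50, adjusted p = 1.83e-05), and its imprinted neighbour Rian fell with it (log2 fold change -3.69, adjusted p = 9.48e-05). Against vehicle the log2 fold change of Meg3 was -3.11 (adjusted p = 8.06e-05), or -3.83 without T3. Both lie on chromosome 12. Of the clock genes, Bhlhe41 alone of 19 was called between 0.3 and 3 µg/kg (log2 fold change 1.29, adjusted p = 0.0352), beside 1.94% of all genes.

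What 10 µg/kg added to 3 µg/kg was partly in genes that 3 µg/kg left near the control level. Ecel1, a membrane peptidase best known from neurons, was at 0.0694 ± 0.027 CPM at 3 and 9.85 ± 2.6 CPM at 10 µg/kg (adjusted p = 6.78e-08). Nipal2, a magnesium transporter relative, went from 0.262 ± 0.0951 to 8.88 ± 5.48 CPM (adjusted p = 8.34e-06), and St14, the epithelial protease matriptase, from 1.21 ± 0.191 to 35.8 ± 16.8 CPM (adjusted p = 2.37e-07). None of these 3 was called at 3 µg/kg against vehicle (adjusted p = 0.148, 0.835 and 0.313). Of 47 collagen and matrix genes 4 were higher at 10 than at 3 µg/kg and none lower, beside 0.675% and 0.384% of all genes. Col1a2 and Col3a1 were still not called (adjusted p = 0.0835 and 0.234). Gpnmb was higher at 10 µg/kg (log2 fold change 3.62, adjusted p = 0.0163). Lower at 10 than at 3 µg/kg were Sult3a1, from 30.8 ± 24.3 to 0.749 ± 0.89 CPM (adjusted p = 0.018), Cyp2g1, from 3.78 ± 0.258 to 0.533 ± 0.0888 CPM (adjusted p = 0.000184), and Mup12, from 7.46 ± 3.94 to 0.784 ± 0.514 CPM (adjusted p = 0.0489). Mup12 had gone the other way against vehicle, from 0.746, 1.88 and 0.923 to 7.99, 11.1 and 3.27 CPM (adjusted p = 0.0278), and that call was lost without V1, V3, T1 or T2 or with no low-count filter (adjusted p from 0.0595 to 0.118).

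**Figure D5:**
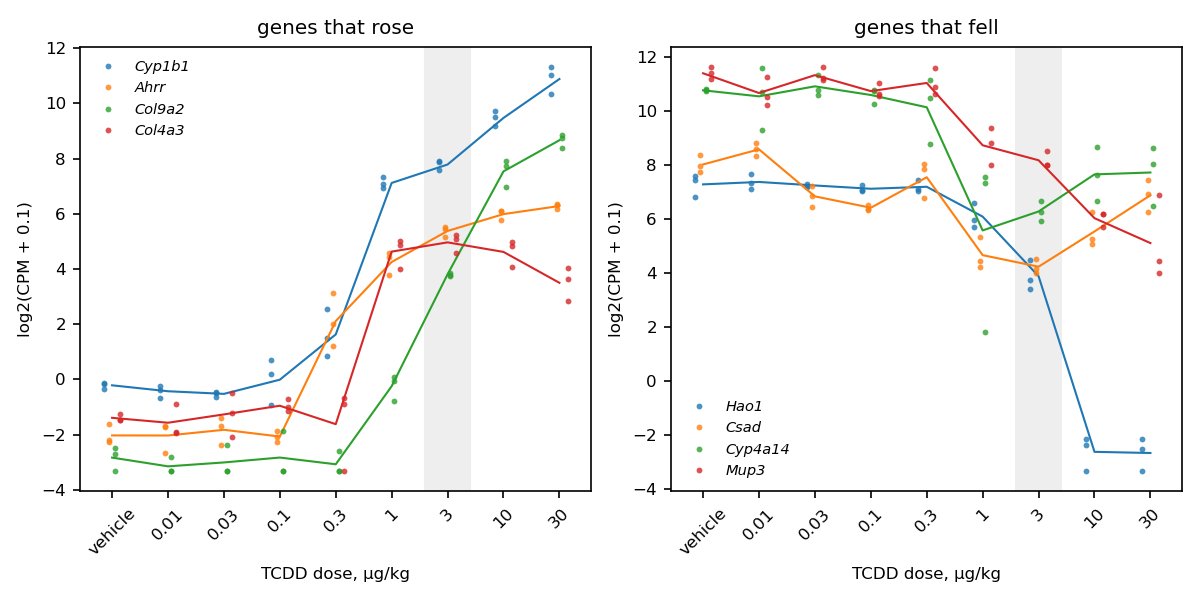
Level of 4 genes that rose (left) and 4 that fell (right) at 3 µg/kg across all 9 dose groups, as log2(CPM + 0.1), 1 point per library, with lines through the means of the log2 values and a grey band at 3 µg/kg. Col9a2 still climbs from 3 to 10 µg/kg, with a log2 fold change of 3.79, and Hao1 drops to 0.127 CPM or less, while Col4a3 overlaps between 3 and 10 µg/kg and stands at 12.3, 16.2 and 7.07 CPM at 30 µg/kg.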

How the data were processed

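The authors deposited whole-number read counts, 1 value per gene and library. Per the submitters' processing notes they used FastQC 0.11.2, cutadapt 1.4.1, TopHat 1.4.1, SAMtools 0.1.19 and HTSeq 0.6.1 with GRCm38. Strand setting and annotation release: not given in the sources used here. Reads aligned to several places stand in a summary line of each deposited file, outside the gene counts, so that levels of near-identical genes are uncertain.

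From 41388 identifiers, filterByExpr with its minimum of 10 counts kept 15121 genes. A one-way quasi-likelihood model (edgeR 4.0.16 in R 4.3.3, TMM scaling, robust dispersion) was fitted to all 27 libraries, which lets every group inform the estimate of the spread, and Benjamini-Hochberg adjustment covered all genes tested. The test was tried on simulated counts of 3 µg/kg against vehicle. It recovered 5 of 66 changes of 1.5-fold (7.58%), 31 of 64 of 2-fold (48.4%) and 52 of 66 of 4-fold (78.8%). Of its 92 calls there 4.35% were false. The SE of a log2 fold change follows from it and F, as |log2 fold change| over the root of F. Gene positions and exon sharing came from GENCODE for GRCm38, and promoters from RefSeq for GRCm38.p6.

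Groups came from the labels. The livers at 3 µg/kg were compared with vehicle and with 0.3, 1 and 10 µg/kg. The naming rule takes the AhR battery and partners. It adds the 15 largest rises and 15 largest falls that were called, did not overlap between groups and reached 1 CPM on average in the higher group, predicted gene models aside, and 5 of each for the other doses. It also takes up to 4 called and 2 uncalled members from each of 32 pathway and 18 marker lists. Not all of the genes so named are described. The members, lists and this rule were chosen with earlier results of these data known. Tried as alternatives were DESeq2 1.42.0, scaling by RLE or by upper quartile, no low-count filter or a minimum of 30, dispersion without the robust step, fits to the 6 libraries of a comparison alone, a block for the replicate number, and leaving out single libraries. Folds against a group with no counts are lower bounds against 3 counts per library, and ratios with 1 to 3 counts in a group carry exact 95% intervals. Intervals and bounds cover counting error only.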

Additional observations from a re-analysis of the deposited data

How the results depend on the processing

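Against vehicle, the 1520 calls at 3 µg/kg moved by less than 1.5 times under other scalings, filters, dispersion, DESeq2 and the 6 libraries alone, and ranged from 917 to 1225 when a library of these groups was left out. The calls between 3 and 0.3 µg/kg, 293, were 460 by DESeq2 and 100 to 354 with a library left out. Between 10 and 3 µg/kg, 160 became 341 with these 6 libraries alone and ranged from 71 to 130 with a library left out. Between 3 and 1 µg/kg, 94 became 344 by DESeq2, 7 with these 6 libraries alone and 17 to 949 with a library left out. The cause of these moves was not tested.

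Of 258 named genes 147 were called against vehicle, and 103 of these kept the call in every alternative. Among genes called in the test as set or in the alternative, 1 direction reversed, that of Acta1. Changes of sign in genes called in neither were not counted. The log2 fold change of Acta1, -2.12, was 6.986 without V3, and over the libraries left out it ranged from -4.67 to 6.986.

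The labels number the replicates alike in each group, and deviations of same-numbered V and T libraries correlated at -0.414, 0.0172 and -0.262. Those of differently numbered libraries correlated at -0.328 to 0.491. With 3 libraries per group these values cannot decide whether the numbers pair the samples. With a replicate block the counts were 1505 against vehicle, 282 between 3 and 0.3, 167 between 10 and 3 and 65 between 3 and 1 µg/kg. Depth limits the low genes most: T1 and T2 have the smallest totals of these 6 libraries, and a gene not called is not shown to be unchanged.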
